A study of Mus musculus with 10 samples.

Results

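The 10 genes described here are receptors, kinases, transcription factors and feedback genes of the IL6-family cytokine route in interscapular brown adipose tissue (iBAT). They were chosen by name from the 27267 genes listed in the deposited normalized counts, and all 10 passed the filter of a mean normalized count of at least 10, as did 13714 of the listed genes. The samples were iBAT from male C57BL/6 mice of 4 weeks on a chow diet, labelled as 5 wild type and 5 *Mgp* KO. *Mgp* encodes matrix Gla protein, a secreted inhibitor of bone morphogenetic proteins. The knockout, bred from *Mgp*+/- mice carrying the tm1Kry allele, was global, so every cell type of the animal carried it, and vascular disease limits the life span of such mice. Each library held bulk RNA of whole tissue, so fewer cells of a type and less RNA per cell cannot be told apart. The labels do not say which mice shared a litter.

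IL6-family cytokines bind a receptor chain such as the IL6 receptor (*Il6ra*), the oncostatin M receptor (*Osmr*) or the LIF receptor (*Lifr*) together with the shared chain gp130 (*Il6st*). Janus kinases bound to these chains, among them *Jak1* and *Jak2*, phosphorylate STAT proteins, chiefly STAT3, which then enter the nucleus and switch on genes that include the inhibitor *Socs3*. STAT5 proteins serve growth hormone and prolactin in the same manner, and *Cish* is a target and inhibitor of that branch. In fat, these routes are known for effects on lipolysis, differentiation and inflammation. RNA levels do not report phosphorylation, which was not measured here.

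STAT dimers bind palindromes of the form TTCNNNGAA, which reads the same on both strands. This pattern was searched in the 250 bases before each RefSeq transcription start (GRCm38.p6) for 12 promoters of the 10 genes, all of which matched the promoter table by symbol. Of the 12 promoters, 1 held a match, that of *Socs3*, against 2306 of 32851 promoters in the whole table (7.02%). The match lies 154 to 146 bases before the RefSeq start. The GENCODE span of *Socs3* begins farther upstream, so the match is inside that span. Its window holds 77 annotated exon bases. The 30 bases around it are at chr11:117969501-117969530 on the minus strand and are shown because *Socs3* is the standard STAT3 feedback gene, with the match in capitals.

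Socs3: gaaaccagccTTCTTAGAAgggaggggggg

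The promoters of *Stat3* (chr11:100939541-100939790, minus strand) and of one *Lifr* start (chr15:7140292-7140541, plus strand) are shown as examples without a match. *Stat3* is the central factor of the route, *Lifr* was the gene with the largest difference in replicates 1 to 3, and neither window overlaps an annotated exon. An absent match says only that these letters are not in the window.

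Stat3: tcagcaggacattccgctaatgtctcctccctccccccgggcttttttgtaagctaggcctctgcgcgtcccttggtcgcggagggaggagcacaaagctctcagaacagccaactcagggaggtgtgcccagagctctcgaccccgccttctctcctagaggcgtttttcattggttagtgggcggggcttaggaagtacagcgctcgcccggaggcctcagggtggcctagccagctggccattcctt

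Lifr: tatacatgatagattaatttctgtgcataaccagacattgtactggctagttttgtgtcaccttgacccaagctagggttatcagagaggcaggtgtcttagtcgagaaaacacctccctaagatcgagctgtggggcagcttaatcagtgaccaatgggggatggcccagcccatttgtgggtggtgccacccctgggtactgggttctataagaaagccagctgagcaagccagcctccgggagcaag

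Some libraries went against their labels. *Mgp* had 466 to 1146 normalized counts in the wild type, 0 to 0.821 in the *Mgp*-KO-labelled libraries 1 to 3, and 500.2 and 331 in those labelled *Mgp*-KO 4 and 5. *Xist*, which is expressed from the inactive X of females, stood at 5094 in wild type 2 and at 0.754 to 44.0 in the other 9 libraries. The replicates also form 2 sets: replicates 1 to 3 had 19616366 to 22252260 reads on genes and 0.771 to 1.72% of them on mitochondrial ribosomal RNA, whereas replicates 4 and 5 had 9253793 to 13281873 reads and 6.50 to 16.7%. The highest share, 16.7%, was that of *Mgp*-KO 4. Between these sets, 38.2% of the tested genes differed at an adjusted p under 0.05 in limma. The labels were kept, and each comparison was made over all libraries, within replicates 1 to 3 and within replicates 4 and 5.

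In wild-type iBAT the 10 genes spanned more than 10 times in level, read as normalized counts per kb of annotated exon (mean ± SD, n = 5). *Il6st* was highest at 234 ± 41.1, followed by *Jak1* at 222 ± 24.5, *Stat5a* at 147 ± 64.1, *Cish* at 125 ± 65.2, *Stat3* at 120.1 ± 12.8, *Lifr* at 100.1 ± 10.04 and *Jak2* at 93.0 ± 9.04. The receptor chains *Il6ra* (28.2 ± 10.9) and *Osmr* (21.6 ± 5.88) and the feedback gene *Socs3* (17.3 ± 5.19) were lowest. *Stat5a* stood at 183 to 208 in wild type 1 to 3, above *Stat3* and *Jak2*, but at 61.2 and 97.3 in wild type 4 and 5, below *Stat3* (134.6 and 102.1) and below *Jak2*. Several neighbours in this order did not separate. *Il6st* lay above *Jak1* in 4 of 5 wild-type libraries, *Stat5a* above *Cish* in 3, *Cish* above *Stat3* in 2, and *Lifr* above *Jak2*, *Il6ra* above *Osmr* and *Osmr* above *Socs3* in 4 each. *Jak1* was above *Stat5a*, *Stat3* above *Lifr*, and *Jak2* above *Il6ra* in 5 of 5. The exon length joins all annotated transcripts (6419 bases for *Cish*), so the place of a gene that mainly uses a short transcript is set too low.

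**Figure D1:**
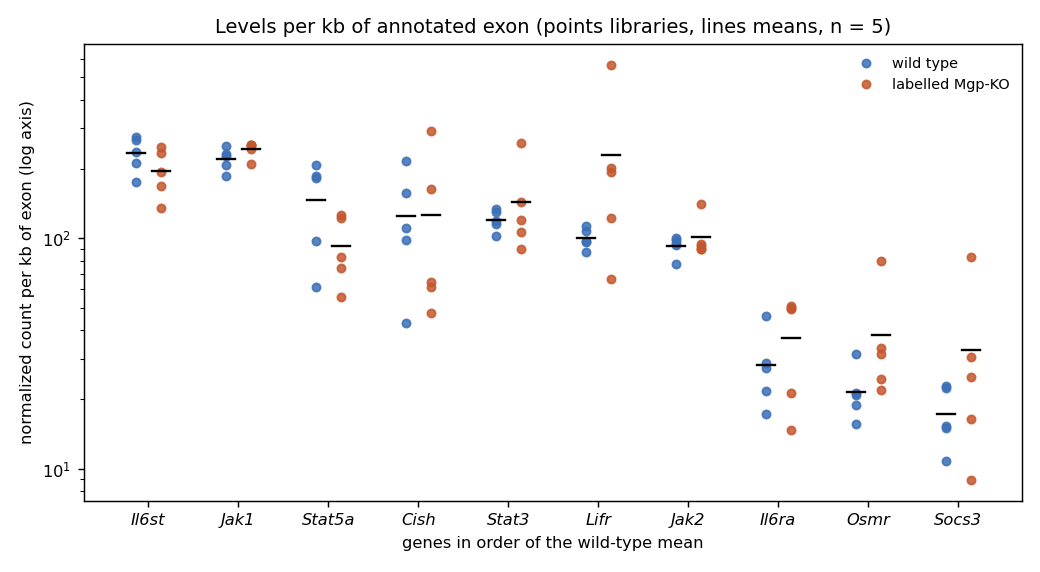
Normalized counts per kb of annotated exon on a log axis for the 10 genes, in order of the wild-type mean. Points are libraries (n = 5 per group) and lines are means. By their wild-type means the genes from *Il6st* to *Jak2* form an upper band, and *Il6ra*, *Osmr* and *Socs3* lie lower. Points of single libraries cross between the bands.

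Over all 10 libraries none of the 10 genes passed the test between the groups, whose values overlapped for every one of the 10. Limma called 0 of 10 at an adjusted p under 0.05, with 0 at an unadjusted p under 0.05, against a background of 0.0656% of tested genes called and 10.4% at the unadjusted p. edgeR and DESeq2 each called 0 of 10 as well (backgrounds 0.0219% and 2.26%), with 2 at an unadjusted p under 0.05, *Osmr* and *Lifr* (backgrounds 11.4% and 13%). Groups that do not overlap made up 3.5% of all tested genes. A term for the set left limma at 0 of 10, with 3 at an unadjusted p under 0.05 (background 2.36% called and 19.3% unadjusted): *Osmr*, *Lifr* and *Stat5a*, with adjusted p = 0.190, 0.224 and 0.170. Without the *Mgp*-KO-labelled libraries 4 and 5, 1 of 10 was called, *Lifr*, at a log2 difference of 1.50 and adjusted p = 0.0499 in limma (background 1.95%). That fit kept wild type 4 and 5 and had no set term, so differences between the sets enter its values. The median log2 difference of the 10 genes was 0.15, and that of all tested genes was 0.03.

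**Figure D2:**
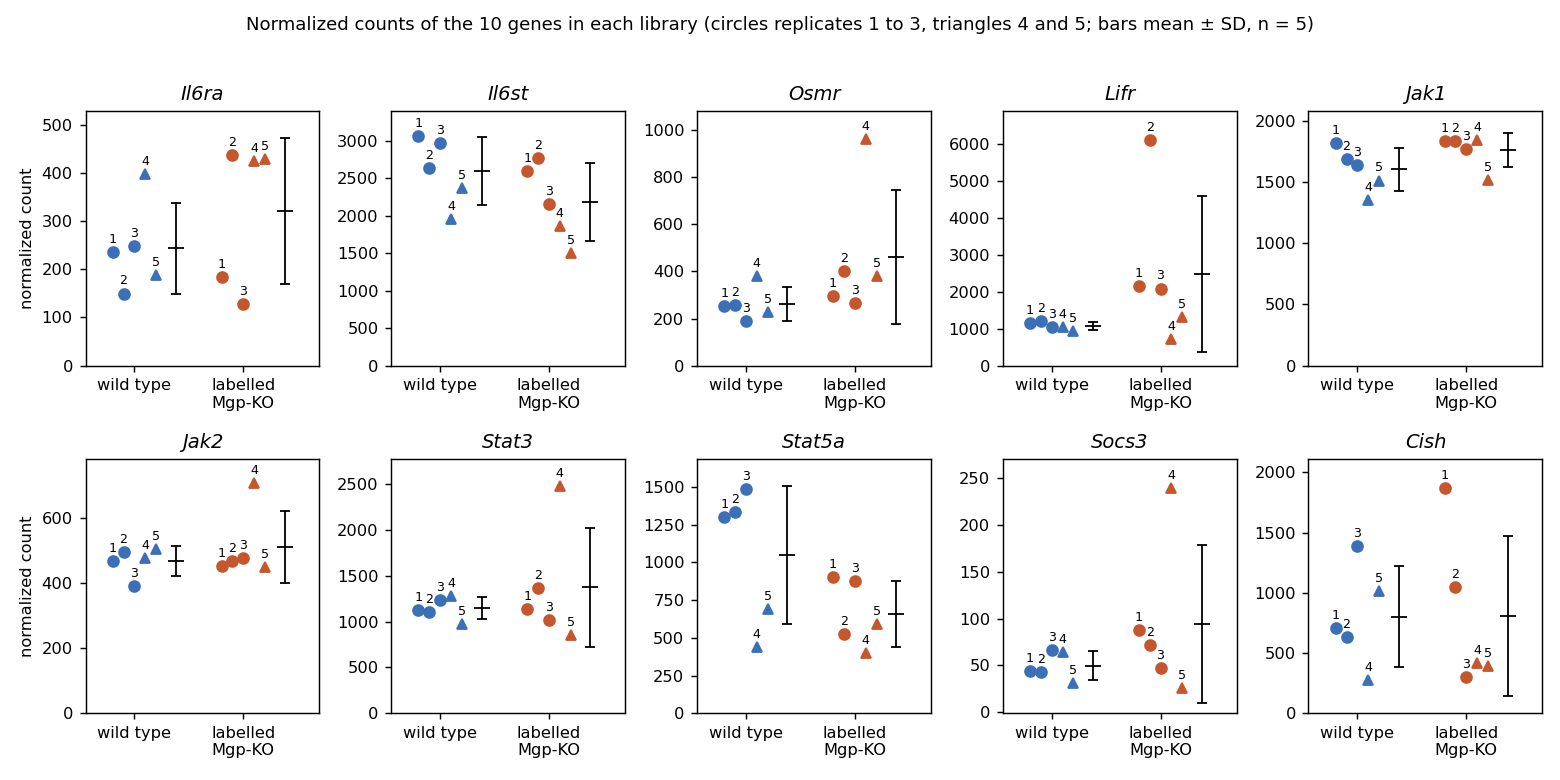
Normalized counts of each gene by library, numbered by replicate (circles, replicates 1 to 3; triangles, replicates 4 and 5; bars, mean ± SD, n = 5). The *Mgp*-KO-labelled libraries 1 to 3 lie above the wild type of the same set for *Lifr* and below it for *Stat5a*, while *Mgp*-KO 4 stands highest for *Osmr*, *Stat3*, *Socs3* and *Jak2*.

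Among the receptors, *Lifr* (chr15:7090614-7197489, plus strand) varied most. This chain pairs with gp130 to receive LIF and related cytokines. Its normalized counts were 1155, 1213, 1036, 1051 and 936 in wild type 1 to 5, compared with 2173, 6110, 2092, 715 and 1322 in the *Mgp*-KO-labelled libraries 1 to 5. The *Mgp*-KO-labelled libraries 1, 2, 3 and 5 were all above every wild-type library, whereas *Mgp*-KO 4 was the lowest of all 10. Over all libraries the log2 difference was 0.84 (95% confidence interval -0.12 to 1.80), with SE 0.44 and adjusted p = 0.551 in limma; it was 0.42 without *Mgp*-KO 2 and 1.20 without *Mgp*-KO 4. Within replicates 1 to 3 it was 1.42 (SE 0.38, interval 0.52 to 2.32), a difference that missed the threshold in limma (adjusted p = 0.0909) and edgeR (0.0802) and passed it in DESeq2 (log2 difference 1.60, adjusted p = 3.51e-04).

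*Mgp*-KO 2 carried the highest *Lifr* level, 2.81 times the next library, and also 27101 normalized counts of 6 skeletal muscle markers summed, against 32.8 to 5264 in the other libraries of replicates 1 to 3. *Mgp*-KO 5, of the other set and with *Mgp* reads against its label, held 30182 of these with *Lifr* at 1322. The part of muscle in the *Lifr* values was not tested. Without *Mgp*-KO 2, the *Lifr* difference within replicates 1 to 3 was smaller, 0.91, and was called in limma (adjusted p = 0.00632, background 5.91%) and DESeq2 (adjusted p = 4.27e-09, background 8.72%). Without wild type 2 it was 1.47 (adjusted p = 0.248 in limma). Within replicates 4 and 5 it was -0.03 (interval -0.94 to 0.89). The test of whether the genotype difference itself differed between the sets gave -1.45 (unadjusted p = 0.0376, adjusted p = 0.470 in limma). This test called 0.00729% of all genes, *Mgp* alone, and 0 of the 10, with *Lifr* the 1 at an unadjusted p under 0.05 beside 10.3% of all genes.

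*Osmr* (chr15:6813577-6874969, minus strand), the receptor chain that pairs with gp130 to bind oncostatin M, had 254, 257, 190, 380 and 228 normalized counts in the wild type and 296, 403, 267, 962 and 381 in the *Mgp*-KO-labelled libraries. The groups overlapped through wild type 4. Neither set taken alone showed overlap, which holds for 30.6% of all tested genes in the former set and 41.6% in the latter. The log2 difference was 0.69 over all libraries (SE 0.33, interval -0.03 to 1.40, adjusted p = 0.505 in limma), 0.45 in replicates 1 to 3 (adjusted p = 0.242) and 1.04 in replicates 4 and 5 (adjusted p = 0.679). *Mgp*-KO 4 alone was 2.39 times the next highest library, and without it the difference over all libraries was 0.38.

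*Il6st* (chr13:112464070-112510086, plus strand), the signalling chain that these receptors share, had 3067, 2633, 2972, 1952 and 2367 normalized counts in the wild type and 2597, 2772, 2160, 1865 and 1504 in the *Mgp*-KO-labelled libraries. The groups overlapped, and the log2 difference was -0.27 (SE 0.21, adjusted p = 0.707 in limma). It was -0.14 without *Mgp*-KO 5 and -0.0392 without *Mgp*-KO 4 and 5, where wild type 4 and 5 were kept. Within replicates 1 to 3 it was -0.21. *Il6st* was lower in replicates 4 and 5 than in 1 to 3 by a log2 difference of -0.50 (adjusted p = 0.0152).

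*Il6ra* (chr3:89864059-89913196, minus strand), which binds IL6 itself, had 236, 150, 248, 397 and 189 normalized counts in the wild type and 184, 438, 127, 424 and 429 in the *Mgp*-KO-labelled libraries. *Mgp*-KO 2, 4 and 5 were the highest of all libraries, and *Mgp*-KO 3 was the lowest. The log2 difference of 0.30 (SE 0.39) had adjusted p = 0.835 in limma. The difference was -0.09 without *Mgp*-KO 4 and 5, where wild type 4 and 5 were kept, and 0.08 within replicates 1 to 3.

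**Figure D3:**
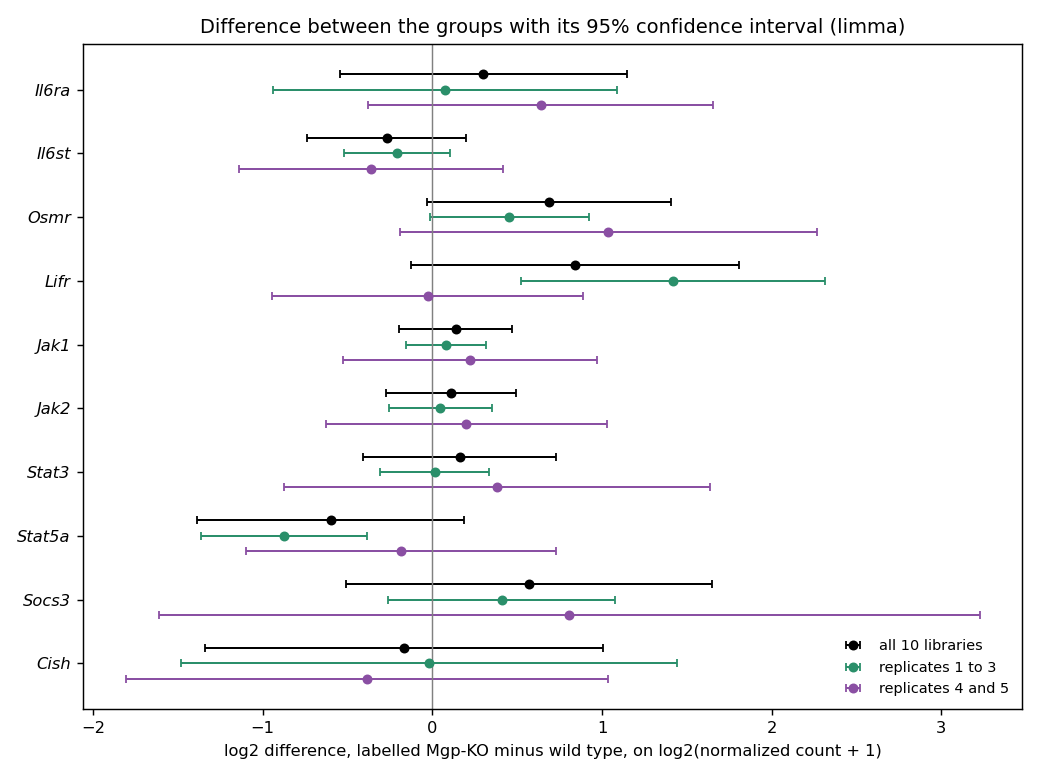
Log2 differences (*Mgp*-KO-labelled libraries minus wild type, on log2 of normalized count + 1) with 95% confidence intervals from limma, for all 10 libraries and for each set of replicates. The intervals of *Lifr* and *Stat5a* leave 0 only within replicates 1 to 3, before adjustment for the number of genes tested.

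*Jak1* (chr4:101152367-101265282, minus strand), which binds gp130, ranged from 1353 to 1817 normalized counts in the wild type (median 1639) and from 1515 to 1842 in the *Mgp*-KO-labelled libraries (median 1831). Its log2 difference was 0.14 (SE 0.15, interval -0.20 to 0.47, adjusted p = 0.811 in limma). *Jak2* (chr19:29251828-29313080, plus strand), also the kinase of the growth hormone receptor, ranged from 390 to 505 in the wild type (median 478) and from 450.2 to 707 in the *Mgp*-KO-labelled libraries (median 466). Its log2 difference was 0.11 (SE 0.18, interval -0.27 to 0.49, adjusted p = 0.874). Without *Mgp*-KO 4, the library at 707, the *Jak2* difference was -0.02.

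*Stat3* and *Stat5a* are neighbours on chromosome 11 that are transcribed toward each other. *Stat3* (chr11:100885098-100939540, minus strand) had 1129, 1101, 1236, 1283 and 973 normalized counts in the wild type and 1141, 1369, 1012, 2480 and 855 in the *Mgp*-KO-labelled libraries. Apart from *Mgp*-KO 4, the *Mgp*-KO-labelled libraries spread around the wild-type range. The log2 difference was 0.16 (SE 0.26, adjusted p = 0.874 in limma), it was 0.01 within replicates 1 to 3, and it was -0.08 over all libraries without *Mgp*-KO 4.

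*Stat5a* (chr11:100859351-100885169, plus strand), a transcription factor activated through growth hormone and prolactin receptors, had 1303, 1332, 1486, 437 and 694 normalized counts in the wild type and 901, 529, 875, 398 and 590 in the *Mgp*-KO-labelled libraries. In replicates 1 to 3 every library labelled *Mgp*-KO was below every wild-type library, and in replicates 4 and 5 the groups overlapped. The log2 difference was -0.60 over all libraries (SE 0.36, adjusted p = 0.603 in limma) and -0.88 within replicates 1 to 3 (SE 0.21, interval -1.37 to -0.39). The latter missed the threshold in limma (adjusted p = 0.0696) and edgeR (0.0749) and passed it in DESeq2 (-0.85, adjusted p = 0.00461). Without *Mgp*-KO 2, the lowest *Stat5a* library of that set, it was -0.63 and was called in limma (adjusted p = 0.0195) and DESeq2 (adjusted p = 1.71e-04). Without wild type 2 it was -0.90 (adjusted p = 0.216 in limma).

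*Stat5a* was also lower in replicates 4 and 5 than in 1 to 3, by a log2 difference of -0.97 (adjusted p = 0.00623), which is larger than its difference between the groups. Of the 10 genes, 2 were called in this comparison of the sets, *Il6st* and *Stat5a*, beside the 38.2% of all tested genes. Exons of *Stat3* and *Stat5a* share 72 bases on opposite strands, and the strand setting of the counting is not given in the sources used here, so reads in those bases were either assigned by strand or set aside as ambiguous.

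Counted over the 10 genes in replicates 1 to 3, limma and edgeR called 0 of 10 genes (2 each at an unadjusted p under 0.05, *Lifr* and *Stat5a*), and DESeq2 called these 2. In DESeq2, 3 genes had an unadjusted p under 0.05, these 2 and *Osmr*. The backgrounds were 3.54%, 3.27% and 8.83% of genes called, and 22%, 22.2% and 21.1% at the unadjusted p. The groups did not overlap for 3 of 10 genes, *Osmr*, *Lifr* and *Stat5a*, beside 30.6% of all tested genes. In replicates 4 and 5, limma, edgeR and DESeq2 called 0 of 10, with 0, 0 and 1 (*Osmr*) at an unadjusted p under 0.05. There limma and edgeR called 0 (0%) of all tested genes and DESeq2 0.367%, with 6.23%, 6.8% and 8.33% at the unadjusted p. The groups did not overlap for 4 of 10 genes, *Il6ra*, *Osmr*, *Jak1* and *Il6st*, beside 41.6%. The shares of genes whose groups do not overlap are near the background in both sets.

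Of the feedback genes, *Socs3* (chr11:117966079-117970047, minus strand), which blocks gp130-bound kinases, had 44.4, 43.4, 66.2, 64.5 and 31.1 normalized counts in the wild type and 88.2, 71.9, 47.6, 239.6 and 25.8 in the *Mgp*-KO-labelled libraries. *Mgp*-KO 5 was the lowest library and *Mgp*-KO 4 the highest, 2.72 times the next. The log2 difference was 0.57 (SE 0.49, interval -0.51 to 1.65, adjusted p = 0.743 in limma), and 0.14 without *Mgp*-KO 4. *Cish* (chr9:107296026-107302784, plus strand) had 709, 633, 1387, 276 and 1014 normalized counts in the wild type and 1871, 1053, 304, 414 and 395 in the *Mgp*-KO-labelled libraries. Its libraries spread widely within both groups, and the log2 difference was -0.17 (SE 0.54, adjusted p = 0.949). It was near 0 in DESeq2 (0.01) and 0.26 without *Mgp*-KO 4 and 5, so no direction can be given.

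*Mgp*-KO 4 was the highest of the 10 libraries for 5 of the 10 genes (*Osmr*, *Jak1*, *Jak2*, *Stat3* and *Socs3*) and exceeded the next library by more than 1.5 times for 3 of them (*Osmr*, *Stat3* and *Socs3*). Over all tested genes it was highest for 25.8% and exceeded the next by 1.5 times for 11%. This library had *Mgp* reads against its label, the highest share of mitochondrial ribosomal RNA and the lowest depth. Its summed endothelial markers stood at 37897 normalized counts (14949 to 22573 in the other 9 libraries), its progenitor markers at 13719 (3572 to 7656) and its hepatocyte markers at 162 (1.47 to 8.79), of which albumin made up 104. Their part in the high values of *Osmr*, *Stat3* and *Socs3* was not tested.

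The rest of the route was read from 7 lists of 80 genes in all, 58 of which passed the filter. Of 10 ligands, 2 passed the filter, *Ctf1* and *Clcf1*, and 8 had low counts. Of these, *Il6* had 0 to 3.24 normalized counts, where 3 reads correspond to 2.15 to 5.19. *Ctf1* encodes cardiotrophin-1, a ligand of the LIF receptor and gp130, and its log2 difference was -0.29 (adjusted p = 0.866 in limma). *Clcf1*, a partner ligand for the CNTF receptor, differed by 0.74 (adjusted p = 0.559). Within replicates 1 to 3 the difference was positive for 2 of these 2 ligands (median 0.68). Within replicates 4 and 5 it was positive for 1 (median -0.46). Of the other receptors, limma called 0 of 3 tested over all libraries (background 0.0656%) and 0 of 3 within replicates 1 to 3 (background 3.54%). *Cntfr*, the CNTF receptor, had a log2 difference of 0.82 within replicates 1 to 3 (adjusted p = 0.0921 in limma, 0.0176 in DESeq2, whose background was 8.83%). *Il27ra* had one of 0.81 over all libraries (adjusted p = 0.681 in limma), -0.33 within replicates 1 to 3 (adjusted p = 0.722) and 2.51 within replicates 4 and 5 (adjusted p = 0.679).

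Limma called 0 of 6 other Janus kinases and STATs and 0 of 15 other SOCS, PIAS and phosphatase genes over all libraries, with the set term and within either set. The backgrounds were 0.0656% over all libraries, 2.36% with the set term, 3.54% in replicates 1 to 3 and 0% in replicates 4 and 5. *Stat2*, a partner in interferon signalling, differed by 0.18 (adjusted p = 0.876). *Pias1*, a protein inhibitor of STATs, differed by 0.61 (adjusted p = 0.413), and *Sh2b3*, an adaptor that restrains JAK2, by 0.47 (adjusted p = 0.400).

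STAT3 target genes moved in both directions. Over all libraries limma called 0 of 18 tested; with the set term it called 3, *Myc* higher and *Pim1* and *Cebpb* lower (background 0.824% higher and 1.54% lower). *Pim1*, a serine/threonine kinase, had 1476, 2413, 3207, 1928 and 2392 normalized counts in the wild type and 1212, 1093, 1289, 928 and 664 in the *Mgp*-KO-labelled libraries, groups that did not overlap. It fell by 1.13 on the log2 scale (adjusted p = 0.0242 with the set term, 0.0987 without). *Myc*, a growth-promoting transcription factor, rose by 1.11 (adjusted p = 0.0259), and *Cebpb*, an adipogenic transcription factor chosen here after its values were seen, fell by 1.06 (adjusted p = 0.0420).

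Within replicates 1 to 3, limma called 2 of the 18 targets. *Junb*, an AP-1 subunit and immediate early gene, had 284, 356 and 543 normalized counts in the wild type and 1140, 1250 and 1022 in the *Mgp*-KO-labelled libraries, and rose by 1.57 on the log2 scale (adjusted p = 0.0192). *Bcl3*, an atypical IkB protein, had 304, 338 and 333 against 121, 85.7 and 121, and fell by 1.58 (adjusted p = 0.00922). The other 16 were not called in limma, while DESeq2 called 3 of the 18 higher and 4 lower (background 8.83%). In limma the median of the list was 0.21 (all tested genes 0.02). In the same comparison 6 of 12 immediate early genes rose (background 1.9% higher and 1.65% lower), among them *Fos* (log2 difference 2.98, adjusted p = 0.00142) and *Egr1* (2.56, adjusted p = 0.00313), and 1 fell. Over all libraries limma called 0 of 12 of the immediate early genes, and 1, higher, with the set term (background 0.824% higher). DESeq2 called 4 of the 12 over all libraries, all higher (background 2.26%). In replicates 4 and 5 their median in limma was 0.01. Their summed level was 8958 to 12393 normalized counts in the wild type, 16286 to 23213 in *Mgp*-KO 1 to 4 and 4343 in *Mgp*-KO 5.

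Acute-phase genes, which IL6 and STAT3 raise in liver, were lower where they were called. Limma called 0 of 7 tested over all libraries. With the set term 2 of 7 fell (background 1.54% lower), *Orm1* by 1.05 (adjusted p = 0.0254 in limma) and *Steap4*, a metalloreductase of adipocytes, by 0.84 (adjusted p = 0.0352). Within replicates 1 to 3, *Steap4* (-0.81, adjusted p = 0.0338) and haptoglobin, *Hp* (-2.25, adjusted p = 0.0382), were called (background 1.65% lower). Of 13 fixed genes 6 did not reach the filter, among them *Saa3* and *Lcn2*.

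In the growth hormone and prolactin axis, which acts through *Jak2* and *Stat5a*, limma called 0 of 7 tested genes over all libraries, 2 of 7 with the set term, both lower (background 2.36%), and 3 of 7 within replicates 1 to 3 (background 3.54%). *Igf1*, a growth factor induced through STAT5, had 612, 654 and 629 normalized counts in wild type 1 to 3 and 217, 171 and 273 in *Mgp*-KO 1 to 3, and fell by 1.54 (adjusted p = 0.00981). *Igfals*, the acid-labile carrier subunit of IGF complexes, fell by 1.32 (adjusted p = 0.0389), and *Csf2rb*, the shared chain of the IL3, IL5 and GM-CSF receptors, rose by 0.94 (adjusted p = 0.0367). In replicates 4 and 5, the log2 difference of *Igf1* was -0.82 (adjusted p = 0.685). The growth hormone receptor, *Ghr*, had a log2 difference of 0.39 within replicates 1 to 3 (adjusted p = 0.356).

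**Figure D4:**
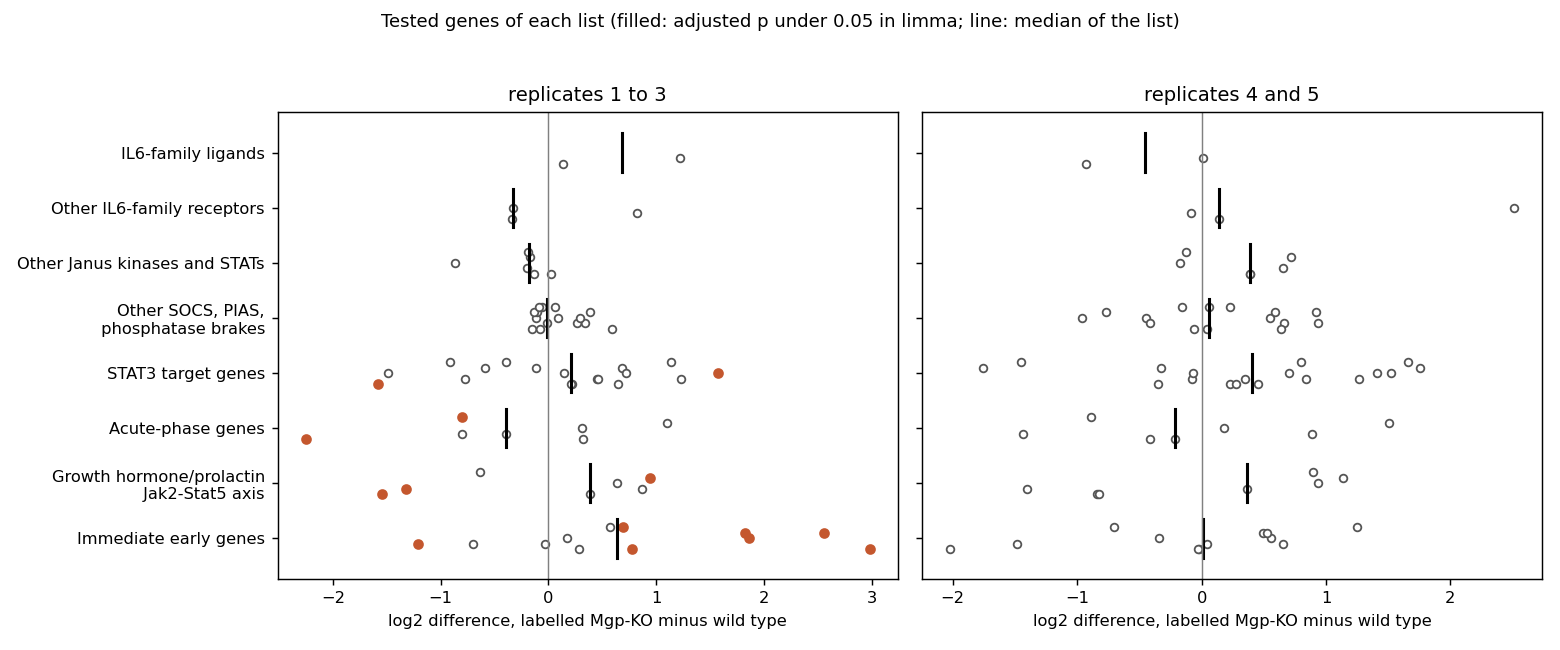
Log2 differences of the tested genes of the 7 pathway lists and the immediate early genes (cell type markers are not drawn) within replicates 1 to 3 (left) and replicates 4 and 5 (right); filled points passed an adjusted p of 0.05 in limma and lines are list medians. Called genes are seen on the left only, on both sides of 0, in the STAT3 target, acute-phase, growth hormone and immediate early lists.

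Markers of the cell types in the tissue give the setting of these values. The brown adipocyte markers *Ucp1*, the uncoupling protein of thermogenesis, and *Dio2*, a thyroid hormone deiodinase, had log2 differences of -2.70 (adjusted p = 0.0127) and -3.35 (adjusted p = 0.0228) in limma with the set term, and 2 of 9 tested markers were called (background 2.36%), against 0 of 9 without it. All 9 were detected, summing to 201238 to 395576 normalized counts in the wild type and 139731 to 281740 in the *Mgp*-KO-labelled libraries. Summed neutrophil markers were 40.1 to 53.7 in the wild type and 93.8 to 523 in the *Mgp*-KO-labelled libraries, and 1 of 3 tested, *S100a9*, was called in limma with the set term (2.33, adjusted p = 0.0439, background 0.824% higher). Without the term limma called 0 of 3 and DESeq2 3 of 3 (background 2.26%). Limma called 0 of 7 endothelial, 0 of 8 myeloid, 0 of 2 T cell, 0 of 6 progenitor and 0 of 6 skeletal muscle markers over all libraries or with the set term. The part of these cells in the values of the 10 genes was not tested.

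The tested genes whose levels followed *Socs3*, *Stat3*, *Osmr* and *Cish* most closely over the 10 libraries, after the mean of each set was removed, are given as a description. For *Socs3* they were *AC124572.1* (Pearson r = 0.984), *Cdc42se2* (0.980) and *Slc26a11* (0.972). *AC124572.1* stood at 0 to 0.765 normalized counts in replicates 1 to 3, under the floor, and at 123 in *Mgp*-KO 4, and its r was 0.549 before the set means were removed. For *Stat3* they were *Srp72* (0.985), *Zc3h18* (0.979) and *Rrs1* (0.975), and for *Osmr* *Smad1* (0.987) and *Kdm5a* (0.986). Values of these 8 genes are highest in *Mgp*-KO 4, and r was 0.896 to 0.955 over the 8 libraries left after the 2 farthest from the median were removed. *Cish* was followed by *Zpbp2* (0.934), *Trim65* (0.914) and *Usb1* (0.907). Each library gives one value to every gene, so its depth and RNA quality enter all of these values, and these genes were picked from 13714 for their likeness.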

How the data were processed

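RNA-seq of iBAT gave 10 libraries, 5 per group, grouped by the genotype in the labels. As the methods and the submitters' processing notes state, the authors aligned 50-base single reads to mm10 with STAR, counted them on genes and divided each library by a DESeq2 size factor. The deposited values are thus a signal per gene, as normalized counts. The annotation release and strand setting are not given in the sources used here. Every value came out as a whole number of reads within a tolerance of 0.01, so reads were recovered (9253793 to 22252260 per library). A floor of 3 reads was 2.15 to 5.19 normalized counts and covers counting error only.

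Limma 3.58.1 in R 4.3.3 (eBayes with trend) was run on log2(normalized count + 1) for 13714 genes with a mean of at least 10, with Benjamini-Hochberg adjustment over all of them and a threshold of 0.05. Such fold changes understate those of low genes. edgeR 4.0.16 (quasi-likelihood) and DESeq2 1.42.0 were run on the recovered reads as alternatives, beside other pseudocounts, filters and scalings, a set term, a replicate block and each library left out. DESeq2 without *Mgp*-KO 2 in replicates 1 to 3 was added after the data were seen. The labels do not say whether samples came from separate litters, so p-values measure the spread between these samples. No 2 libraries of the same group were alike within sampling noise; pairs across groups were not compared.

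The 10 genes, lists and tests were chosen with earlier results of these data known. Named beside the 10 genes were *Mgp*; from each list up to 4 genes past the threshold in limma over all libraries, with the set term or block, or within replicates 1 to 3, otherwise the 2 with the largest difference; and the 3 genes most like *Socs3*, *Stat3*, *Osmr* and *Cish*. *Ghr*, *Cebpb* and *Xist* were named after their values were seen. The values of 2 genes that the rule names are not reported here. Gene coordinates are from the GENCODE annotation of GRCm38 (mm10), which held 25666 of the listed symbols (94.1%), and promoters from RefSeq.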

Additional observations from a re-analysis of the deposited data

Results flagged for a closer look

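Of 20 groups of 5 values (10 genes in each genotype), 4 held a library with a wide gap to its nearest neighbour. The gap took up more of the range of its group than the critical share of 0.71. That share is passed about 1 time in 20 by independent normal values. The gaps were taken on normalized counts, not log2 values, and the 20 groups share the same libraries, so 4 of 20 cannot be set against that rate. All 4 were in the group labelled *Mgp*-KO. In *Osmr*, *Mgp*-KO 4 at 962 normalized counts stood over the next at 403, a gap of 0.804 of the range. In *Jak2*, *Mgp*-KO 4 at 707 stood over 476, a gap of 0.899. In *Lifr*, *Mgp*-KO 2 at 6110 stood over 2173, a gap of 0.730. In *Jak1*, *Mgp*-KO 5 at 1515 stood under 1769, a gap of 0.776. *Mgp*-KO 4 and 5 are the libraries with *Mgp* reads against their label, and *Mgp*-KO 2 and 5 hold the highest skeletal muscle marker sums. Their part in these gaps was not tested.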

How the results depend on the processing

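The count of genes called over all libraries, 9 in limma, depended on the model. It was 374 in DESeq2, 1152 in DESeq2 with a set term, 3 in edgeR, 341 in edgeR with a set term, 324 in limma with a set term, 15 with a mean of at least 50, 1 without a filter, 29 with a pseudocount of 10, 34 after quantile normalization and 267 without *Mgp*-KO 4 and 5. Within replicates 1 to 3, 486 genes became 1348 in DESeq2 and 280 without a mean-variance trend, and within replicates 4 and 5, 0 became 50 in DESeq2. With each library left out in turn, the counts were 0 to 93 over all libraries (93 without *Mgp*-KO 4), 26 without wild type 2 to 811 without *Mgp*-KO 2 in replicates 1 to 3, 1 to 1612 for the interaction (1612 without *Mgp*-KO 5) and 4313 to 5389 between the sets.

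The paper describes pairs of *Mgp*-KO and wild-type mice, and whether the replicate numbers give these pairs could not be settled. The correlation of deviations from group means was 0.0559 to 0.527 for the same number (mean 0.3895). For other numbers of the same set its mean was 0.4161. After set means were removed, the correlation for the same number averaged -0.0224. The best match of a wild-type library had its own number in replicates 4 and 5, but not in replicates 1 to 3. Replicates 4 and 5 shared one value after set means were removed (0.2233), because so small a set forces them to be equal. With the replicate number as a block, limma called 270 genes over all libraries and 265 in replicates 1 to 3, and edgeR 222. The block called none of the 10 genes (lowest adjusted p = 0.0916 over all libraries, 0.0655 in replicates 1 to 3), with 3 at an unadjusted p under 0.05 in each.

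*Il6st*, *Osmr*, *Lifr*, *Jak1*, *Stat5a* and *Socs3* kept their direction over all libraries and within replicates 1 to 3 under every setting run. Other log2 differences changed sign. Without *Mgp*-KO 4 and 5, with wild type 4 and 5 kept, they were -0.0875 for *Il6ra*, -0.0046 for *Jak2* and 0.26 for *Cish*. *Cish* was 0.0067 in DESeq2 over all libraries, and 0.23 in DESeq2 and 0.22 in edgeR within replicates 1 to 3. In DESeq2 without *Mgp*-KO 2, replicates 1 to 3 gave -0.45 for *Il6ra*, -0.11 for *Stat3* and 0.25 for *Cish*. *Lifr* in replicates 4 and 5 was 0.034 in DESeq2 and 0.045 in edgeR. With libraries left out in turn, the ranges over all libraries were -0.0156 to 0.15 for *Jak2*, -0.0790 to 0.30 for *Stat3* and -0.56 to 0.0961 for *Cish*. In replicates 1 to 3 they were -0.43 to 0.46 for *Il6ra*, -0.0541 to 0.12 for *Jak2*, -0.10 to 0.11 for *Stat3* and -0.59 to 0.72 for *Cish*. In replicates 4 and 5, where a lone library is assumed to vary like the other group, they were -0.47 to 0.41 for *Lifr*, -0.13 to 0.52 for *Jak2*, -0.39 to 1.15 for *Stat3*, -0.52 to 0.15 for *Stat5a*, -0.78 to 2.39 for *Socs3* and -1.32 to 0.55 for *Cish*. The causes were not tested.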
